A study of Mus musculus with 15 samples.

Results

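Cxcl13 was followed in microglia sorted from mouse brain, as 1 gene of the 13834 that the expression table lists, together with the genes whose levels ran most closely with or against it. The gene was selected on its own levels across these libraries, and its companions were chosen by the correlation of their log2(TPM + 1) with that of Cxcl13 over all 15 libraries: the 16 genes with the highest r and the 8 with the lowest. Levels and correlations of these genes are therefore given as a description, without a test. TPM is transcript abundance per length, relative to all transcripts of a library.

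The libraries fall into 4 groups, and the labels number those of a group as biological replicates. The PLX5622 group (n = 4) came from 18-month-old mice treated with the compound of that name, which blocks the CSF1 receptor and is used to deplete microglia. AF-high (n = 5) and AF-low (n = 3) microglia came from untreated 18-month-old mice and were sorted for high or low autofluorescence, a light emission that in old microglia is commonly ascribed to material stored in lysosomes. The young group (n = 3) came from untreated 3-month-old mice. The other 3 groups share the old age, and only the young group differs in it. Strain, sex, the dose and schedule of the compound, the autofluorescence gate of the PLX5622 and young cells, and whether a library is 1 animal or a pool remain unstated in the labels. Whether AF-high and AF-low cells were fractions sorted from the same mice is not stated either, so libraries of these groups may share animals. Where libraries of a group did not come from separate mice, their spread is technical.

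CXCL13 is a chemokine of the CXC family that attracts B cells through the receptor CXCR5 and shapes B-cell follicles in lymphoid organs. Its best known control runs through the lymphotoxin beta receptor, which releases the kinase NIK (Map3k14) from TRAF and BIRC proteins, so that IKK-alpha (Chuk) can convert the precursor made by Nfkb2 and set RelB free to enter the nucleus. In mice the gene is made by stromal and follicular dendritic cells and by some macrophages.

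Cxcl13 lies on chromosome 5 of GRCm38, from 95956951 to 95961068 on the plus strand, with 4 exons that join to 1150 bases and encode 109 residues. The 250 bases before its RefSeq start (GRCm38.p6, chr5:95956689-95956938, plus strand) are shown because they hold the kappaB-like site for which this promoter is known in mice; capitals mark that site and the TATA box.

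Cxcl13 promoter: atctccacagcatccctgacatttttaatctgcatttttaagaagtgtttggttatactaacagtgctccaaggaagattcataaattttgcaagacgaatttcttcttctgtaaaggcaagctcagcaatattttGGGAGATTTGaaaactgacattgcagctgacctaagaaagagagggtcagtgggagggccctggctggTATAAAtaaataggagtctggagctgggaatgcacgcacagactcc

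The kappaB-like letters GGGAGATTTG, described as a target of RelB dimers, begin 114 bases before the start and occur on either strand in 26 of 32851 RefSeq promoter windows of the same 300-base length (0.0791%). The letters TATAAA begin 46 bases before the start and occur in 13.6% of windows. The NF-kappaB consensus, the interferon-stimulated response element (GAAANNGAAA), the AP-1 site (TGANTCA) and the PU.1-type letters GAGGAAGT were not found in this window. Shorter forms of the PU.1 site were not searched. These matches describe letters, and no binding was measured.

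Before the levels, 5 libraries stand apart in other respects. Mitochondrially encoded transcripts made up 5.38% and 7.66% of TPM in AF-high 2 and AF-high 3, against 1.57% to 2.70% in the other libraries, and AF-low 1 has the lowest sum over microglial markers (8747 TPM). Young 1 and young 2 carried 7770 and 5084 TPM of Ttr, which encodes transthyretin and is abundant in choroid plexus, against 25.7 to 341 TPM elsewhere. Library totals ran from 956489 to 963145 TPM; TPM keeps no record of read depth, so depth is unknown and the low values have no counting error. All 12 microglial markers examined, among them P2ry12, Tmem119 and Cx3cr1, were listed. Each listed gene of any kind has a value above 0 in every library, so nothing is read from their presence in each.

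Cxcl13 was highest in microglia from PLX5622-treated mice, next in AF-low cells, then in AF-high cells, and lowest in young cells. PLX5622 libraries 1 to 4 had 27.0, 14.5, 23.4 and 19.5 TPM. AF-high libraries 1 to 5 had 6.20, 0.252, 6.70, 3.03 and 2.43 TPM, AF-low libraries 1 to 3 had 10.1, 11.2 and 15.7 TPM, and young libraries 1 to 3 had 1.16, 0.217 and 0.171 TPM. Every PLX5622 and AF-low library was above every AF-high and young library. The 3 highest libraries were PLX5622 1, 3 and 4, followed by AF-low 3 and then PLX5622 2.

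**Figure D1:**
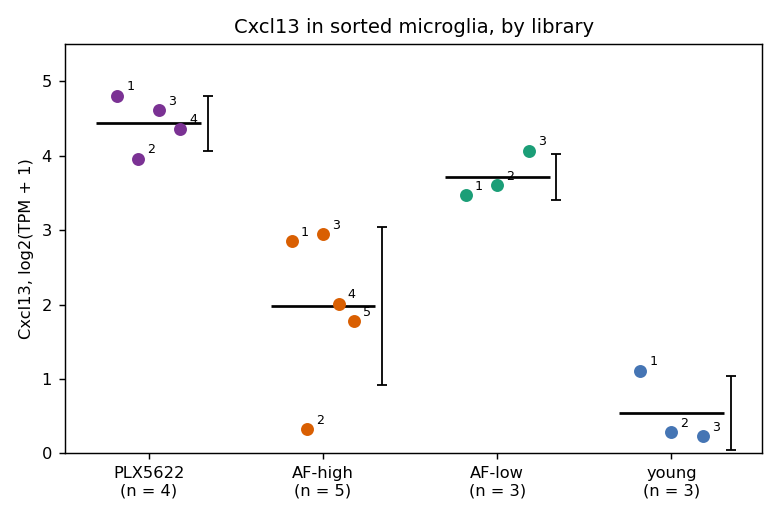
Cxcl13 in each library as log2(TPM + 1), by group; numbers are replicate numbers, horizontal lines group means and brackets the SD. PLX5622 and AF-low libraries lie above all others, and AF-high 2 lies among the young libraries.

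The group means were 21.1 ± 5.34 TPM in PLX5622 (SD, n = 4), 3.72 ± 2.70 in AF-high (n = 5), 12.3 ± 3.01 in AF-low (n = 3) and 0.516 ± 0.557 in young libraries (n = 3). Of the neighbours in that order, PLX5622 and AF-low overlapped (14.5 to 27.0 against 10.1 to 15.7 TPM) and so did AF-high and young (0.252 to 6.70 against 0.171 to 1.16 TPM). AF-high and AF-low did not overlap (0.252 to 6.70 against 10.1 to 15.7 TPM). The microglial markers stood the other way: all 12 had a higher mean log2 level in AF-high than in AF-low (median log2 difference 0.30, against -0.04 over all genes tested). By limma 0 of them were called, as were 0% of all genes, and 3 had an unadjusted p under 0.05, as had 1082 of all 13175. Their sums were 10928 to 15174 TPM in AF-high and 8747 to 12072 TPM in AF-low libraries, which overlap, and their part in the Cxcl13 difference was not tested. The AF-high overlap with young rests on AF-high 2, since its other 4 libraries began at 2.43 TPM. In bulk libraries, fewer cells that make Cxcl13 and less Cxcl13 RNA per cell cannot be told apart.

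On the log2(TPM + 1) scale, which understates differences of low values, Cxcl13 was higher by 3.89 ± 0.49 (SE from limma) in PLX5622 than in young cells. This difference ranked 1 of 13175 genes tested from the top. AF-low exceeded young cells by 3.17 ± 0.52 (rank 2), PLX5622 exceeded AF-high by 2.45 ± 0.43 (rank 14) and AF-high exceeded young by 1.44 ± 0.47 (rank 17). AF-high minus AF-low gave -1.73 ± 0.47, at rank 13 from the lowest of all genes. PLX5622 minus AF-low gave 0.72 ± 0.49, at rank 406 from the top. These 6 differences share groups, so they are not independent of each other. PLX5622 and young cells differ in both age and compound, which cannot be told apart in that comparison. The gate of PLX5622 and young cells is unstated, so it may also differ where they are set against AF-high or AF-low. Because the gene was selected on its own levels, nothing is read from the ranks. Medians over all genes lay between -0.11 and -0.02.

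The differences kept their signs without the libraries that stand apart. Leaving out young 1 and 2, a choice made after seeing the data, gave 4.21 ± 0.74 for PLX5622 minus young, 1.75 ± 0.73 for AF-high minus young and 3.49 ± 0.76 for AF-low minus young, the 1 remaining young library being taken to vary like the other groups. Leaving out AF-high 2, AF-high 3 and AF-low 1 was also a choice made after seeing the data. It gave 2.22 ± 0.31 for PLX5622 minus AF-high, -1.62 ± 0.37 for AF-high minus AF-low and 0.60 ± 0.35 for PLX5622 minus AF-low. Leaving out AF-high 2 alone already gave an SE of 0.31 for PLX5622 minus AF-high, against 0.43 with all 15 libraries. Group accounted for 85.1% of the variance of Cxcl13 over the libraries, against a median of 26.2% over the genes tested. The selection of the gene on its own levels favours a high share, and nothing is read from it. Within groups, the spread of Cxcl13 (pooled SD 0.71) was larger than that of 92.5% of the genes tested. The SD was 0.37 in PLX5622, 1.06 in AF-high, 0.31 in AF-low and 0.49 in young libraries.

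Among CXC chemokine genes, 11 were listed, counting Cxcl13. By mean TPM, Cxcl13 ranked 4 in PLX5622, 6 in AF-high, 6 in AF-low and 11 in young cells, and it made up 5.58%, 0.767%, 2.30% and 0.192% of their summed TPM in these groups. Cxcl10, which is interferon-induced and recruits T cells, was the most abundant in each, at 200 ± 20.9 TPM in PLX5622, 214 ± 46.7 in AF-high, 172 ± 71.0 in AF-low and 136 ± 25.1 in young cells. Correlations with Cxcl13 ran from -0.06 to 0.43 over the 9 family members tested beside Cxcl12.

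Few of the genes around Cxcl13 on the chromosome were measured. Of 42 annotated genes within 1 Mb of Cxcl13, 3 were listed: Cnot6l, a subunit of the CCR4-NOT deadenylase, 109 kb downstream (r = 0.34), Mrpl1, a mitochondrial ribosomal protein (r = 0.39), and Anxa3, an annexin (r = -0.13). The nearest listed gene on the other side, Ccng2, a cyclin, was 2681 kb away (r = 0.11). Cnot6l was at 57.2 ± 10.4 TPM in PLX5622, 34.3 ± 16.2 in AF-high, 33.5 ± 11.9 in AF-low and 45.8 ± 7.16 TPM in young cells. Each r is over the 15 libraries and is a description.

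Of the genes that run with Cxcl13, the 16 named had Pearson r from 0.75 to 0.88 and Spearman rho from 0.59 to 0.91. Over all 13174 other genes tested the median r was -0.09, and 95% of the values lay between -0.60 and 0.49. The last gene inside the list was Zfp989 (r = 0.752) and the first outside it Gart (r = 0.750), so the border is not a gap. Points of these correlations share their group and the closed TPM total, and the choice by r favours genes that follow the order of the groups. Each of the 16 had its lowest mean in young cells; 13 had their highest in PLX5622 and 3 in AF-low cells, and in 9 the 4 means stood in the same order as for Cxcl13. In 3 of the 16 every AF-low library was above every AF-high library, as in 1.71% of all genes tested, but the choice by r favours such genes and nothing is read from the count.

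Ifi204, an interferon-inducible gene of the family that senses DNA, had the highest r (0.88; rho 0.91). PLX5622 libraries had 56.8, 43.2, 61.4 and 61.8 TPM, AF-high libraries 37.1, 35.1, 34.6, 35.9 and 37.5, AF-low libraries 48.6, 41.9 and 45.0, and young libraries 32.6, 19.3 and 25.5 TPM. PLX5622 and AF-low overlapped as they did for Cxcl13, and the AF-high and young libraries, in that order, lay below both without overlap. Reads of Ifi204 and its near-identical relatives may be shared, so its level is uncertain. Axl, a receptor tyrosine kinase for the bridging proteins that bind dying cells, followed (r = 0.87; rho 0.80). Axl was at 36.9, 19.5, 27.2 and 26.1 TPM in PLX5622, 16.3, 6.13, 27.8, 15.7 and 6.41 in AF-high, 13.3, 16.6 and 12.9 in AF-low and 5.54, 6.38 and 6.48 TPM in young libraries. It did not separate AF-high from AF-low as Cxcl13 did, but AF-high 2 was again the lowest AF-high library.

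Of the 16, 4 were on the interferon list and 3 on that of disease-associated microglia. Among all 13175 genes tested, these lists hold 33 and 29. The interferon list was added after values were seen, and both were chosen with earlier results known, so nothing is read from these counts. Samd9l, Oasl2 and Oas1g are, like Ifi204, induced by interferon; Samd9l (r = 0.83) was at 9.82 ± 0.943 TPM in PLX5622, 3.23 ± 0.431 in AF-high, 6.92 ± 3.21 in AF-low and 2.70 ± 1.18 in young cells. Lpl, which encodes lipoprotein lipase, and Clec7a, the beta-glucan receptor dectin-1, belong with Axl to the list of disease-associated microglia. Clec7a (r = 0.79) had 44.6, 42.9, 40.0 and 39.3 TPM in PLX5622, 13.1, 8.34, 16.6, 36.0 and 15.8 in AF-high, 42.9, 31.1 and 21.0 in AF-low, and 13.9, 13.2 and 15.3 TPM in young libraries. AF-high 4 stood with the AF-low libraries for this gene. Hcar2, the receptor for niacin and beta-hydroxybutyrate, had r = 0.80, and Gpr65, a receptor that senses protons, 0.77. Hcar2 was at 12.6 ± 1.42 TPM in PLX5622, 8.04 ± 1.87 in AF-high, 7.50 ± 0.940 in AF-low and 3.07 ± 0.680 in young cells.

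The other 7 were Cd52, which encodes a small glycoprotein on the surface of leukocytes (r = 0.83), Naalad2, a peptidase (0.80), St8sia6, a sialyltransferase (0.78), Ms4a6c, a membrane protein of myeloid cells (0.77), the transcriptional repressor Trps1 (0.76), the inhibitory receptor Cd72 (0.76) and the zinc finger gene Zfp989 (0.75). St8sia6 was at 56.6, 37.6, 35.4 and 35.4 TPM in PLX5622 libraries, between 7.49 and 29.7 in AF-high, 11.1 and 17.7 in AF-low, and 9.23 and 11.2 TPM among young libraries. All PLX5622 libraries were above all others for it. Cd72 was at 36.2 ± 7.88 TPM in PLX5622, 24.3 ± 5.83 in AF-high, 39.0 ± 3.70 in AF-low and 19.3 ± 3.70 in young cells, with AF-low the highest mean.

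**Figure D2:**
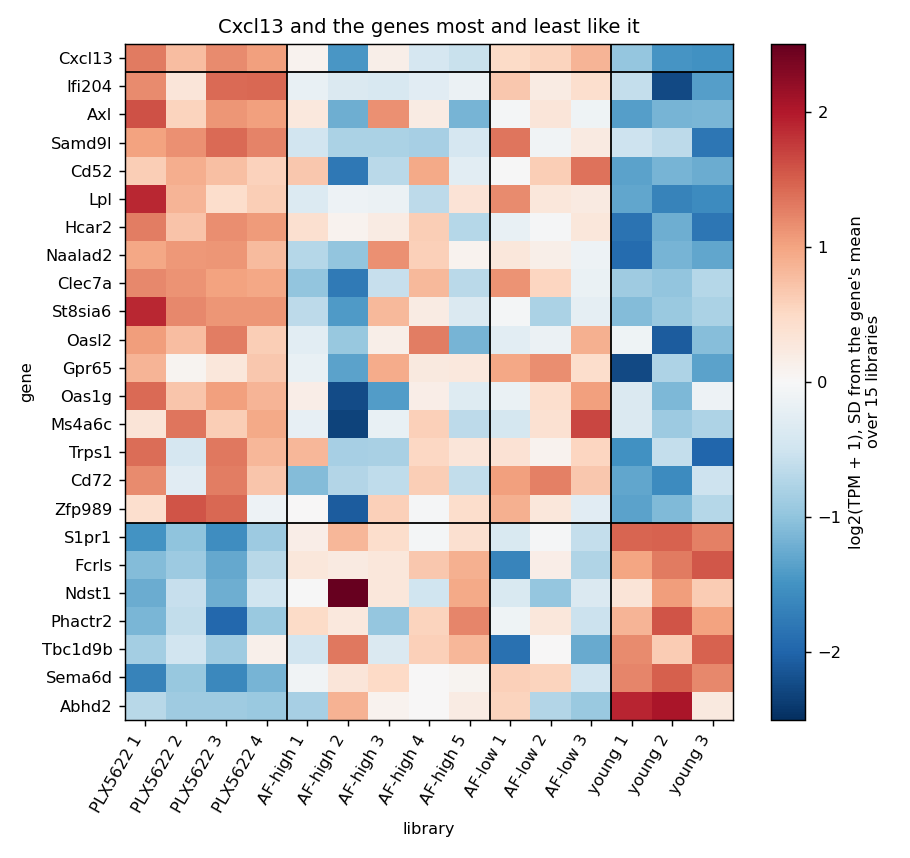
Each cell gives a gene's log2(TPM + 1) in 1 library as SD from that gene's mean over 15 libraries; Cxcl13 is on top, the 16 genes with the highest r below it and 7 of the 8 with the lowest r at the bottom. PLX5622 libraries are mostly on the high side for the 16 and on the low side for the 7, and AF-high 2 often departs from its group.

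One gene too low to be named by the rule, singled out after its values were seen, had a higher r than these: Pcdhb22, a protocadherin of cell adhesion (r = 0.95; rho 0.93). It was at 3.60 ± 0.410 TPM in PLX5622, 2.32 ± 0.367 in AF-high, 2.91 ± 0.497 in AF-low and 1.72 ± 0.182 in young cells. Protocadherin genes of that cluster are close copies of each other, so its level is uncertain.

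Running against Cxcl13 were 8 genes with r from -0.93 to -0.80. S1pr1, the sphingosine-1-phosphate receptor that guides lymphocyte traffic, stood first (r = -0.93; rho -0.93). PLX5622 libraries had 14.8, 16.9, 14.5 and 17.3 TPM, AF-high libraries 23.0, 27.4, 24.7, 21.7 and 24.4, AF-low libraries 19.8, 21.8 and 18.8, and young libraries 32.2, 32.4 and 30.7 TPM. Each PLX5622 library was below each other library, each young library was above each other library, and AF-low overlapped AF-high only where AF-low 2 (21.8 TPM) met AF-high 4 (21.7 TPM). Fcrls, an Fc receptor-like gene typical of microglia, came next (r = -0.85), at 581 ± 29.4 TPM in PLX5622, 780 ± 47.0 in AF-high, 617 ± 112 in AF-low and 917 ± 52.9 in young cells. The heparan sulfate enzyme Ndst1, the actin regulator Phactr2, the GTPase regulator Tbc1d9b, the guidance molecule Sema6d and the hydrolase Abhd2 were also among the 8. All 8 had every PLX5622 library below every young library, as 12.7% of all genes tested had; the choice by r favours this separation, and nothing is read from it. Of the 8, 7 had their highest mean in young cells and 1, Ndst1, in AF-high cells.

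**Figure D3:**
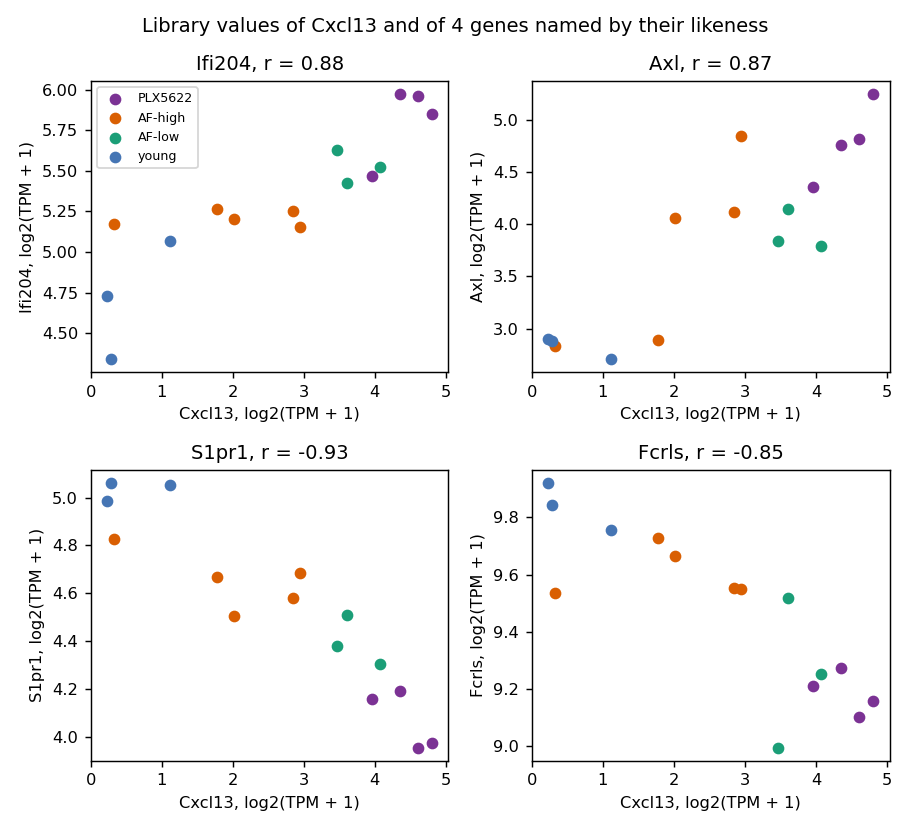
Ifi204, Axl, S1pr1 and Fcrls in each library against Cxcl13, all as log2(TPM + 1) and coloured by group. Ifi204 and Axl go up with Cxcl13 (r = 0.88 and 0.87) and S1pr1 and Fcrls go down (r = -0.93 and -0.85), mostly along the order of the groups.

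How far these relations rest on the groups was seen by taking out each group's mean. Within groups, r ran from -0.01 to 0.75 for the 16 genes, with Axl at 0.75 and Lpl at -0.01, and from -0.79 to -0.08 for the 8. Without AF-high 2, the within-group r of the 16 ran from -0.44 to 0.62 and 6 were negative, so much of the within-group likeness rests on AF-high 2. All 8 stayed negative without it (-0.71 to -0.10). The 6 genes with the highest within-group r were Mrpl23, Lypla1, Rbm34, Psmb1, Lat2 and Ndufs3 (0.83 to 0.85; 0.50 to 0.78 without AF-high 2). Lat2, an adaptor of immune receptors, was the only 1 of these 6 that also ran with Cxcl13 over all libraries (r = 0.70). It was at 24.7 TPM in AF-high 2 and 54.5 to 65.0 TPM in the other AF-high libraries.

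The membership of the list of 16 depended on the libraries used. With the 2 libraries farthest from the median of Cxcl13 left out (young 2 and 3), the 16 genes kept positive r (0.66 to 0.84), but 6 of them were among the 16 highest. Among the 12 old libraries they had r from 0.60 to 0.85, and 1 of them, Oas1g, was still among the 16 highest. Without AF-high 2, 7 were. Oas1g was low, at 6.84 ± 1.49 TPM in PLX5622, 2.24 ± 1.64 in AF-high, 4.75 ± 1.98 in AF-low and 2.24 ± 0.909 in young cells, and at 0.168 TPM in AF-high 2. Among genes high enough to be named, the highest r over old libraries belonged to Hnrnpu, an RNA-binding protein gene (0.91, against 0.03 over all 15), at 1029 TPM in PLX5622, 778 in AF-high, 921 in AF-low and 1199 TPM in young cells. Young cells were thus high in Hnrnpu and low in Cxcl13.

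Promoter windows were found for 10 of the 16 genes that run with Cxcl13 (12 windows) and for 5 of the 8 that run against it (6 windows). The kappaB-like letters of the Cxcl13 promoter were in none of these (0 windows). The interferon-stimulated response element was in 1 of the 12, that of Oas1g, against 3.44% of all windows, and the NF-kappaB consensus in 1, that of Naalad2, against 4.51%. TATAAA was in 3 of the 12 (25.0%), against 13.6% of all. These 3 matches were on the minus strand, at -187 in Oasl2, -175 in Gpr65 and 42 in Clec7a, counted from the start. That of Cxcl13 was on the plus strand at -46.

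By list, genes of disease-associated microglia had a median r of 0.24 (20 of 29 positive) and interferon-stimulated genes, a list added after values were seen, 0.31 (29 of 33 positive), against -0.09 over all genes. Microglial markers had -0.48 (0 of 12 positive). These lists hold members that the choice by r had put among the 16 or the 8. Of 29 genes of disease-associated microglia, 2 were called higher in PLX5622 against young (0.0607% of all genes were) and 0 lower (0.0304% were): Cst7, a cysteine protease inhibitor, at 51.1 ± 8.28 TPM in PLX5622 and 9.31 ± 3.12 in young cells (limma adjusted p = 0.0104), and Spp1, which encodes osteopontin, at 18.5 ± 3.34 TPM in PLX5622 and 1.56 ± 0.708 in young cells (limma adjusted p = 0.0125). Both calls ended without PLX5622 1, young 1 or young 2, and that of Spp1 also without PLX5622 4; without young 1 and 2 together the fit called 0 of all genes in this comparison. Lgals3, which encodes galectin-3, was called higher in PLX5622 against AF-high (8.84 ± 2.76 TPM in PLX5622 and 2.09 ± 1.36 in AF-high cells, limma adjusted p = 0.0362), 1 of 29 where 0.159% of all genes were. It was not called in 12 of 24 alternatives, among them a pseudocount of 0.1 (limma adjusted p = 0.0605), the fit of only both groups and those without any 1 of the 4 PLX5622 libraries, the 3 young libraries or AF-high 2 (adjusted p from 0.0238 to 0.139 over 24 limma alternatives). Lilrb4a, an inhibitory receptor gene, was called higher in AF-low against young (256 ± 68.9 TPM in AF-low and 103 ± 13.6 in young cells, limma adjusted p = 0.0374), 1 of 29 where 0.0455% of all genes were. It was not called in 13 of 24 alternatives, among them the fit of only both groups and those without any 1 of PLX5622 2, 3 or 4, AF-high 4 or 5, AF-low 1 or 3, or young 1 or 2 (limma adjusted p from 0.0069 to 0.992).

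Of 33 interferon-stimulated genes, 2 were called higher and 0 lower in PLX5622 against young, where 0.0607% and 0.0304% of all genes were. These were Ifi204 and Samd9l, which both belong to the 16, so nothing is read from these calls. Ifi204 was not called in 6 of 24 alternatives and Samd9l in 12 of 24. In PLX5622 against AF-high 1 was called higher and 1 lower, where 0.159% and 0.471% of all genes were. The higher one was again Samd9l, and nothing is read from its call here either. Samd9l was not called in 6 of 24 alternatives, among them those without any 1 of the 4 PLX5622 libraries. The lower one was Stat2, which encodes a signal transducer of the interferon receptors, at 734 ± 113 TPM in PLX5622 and 1315 ± 308 in AF-high cells (limma adjusted p = 0.0411); it was not called in 15 of 24 alternatives, among them quantile normalization, the fit of only both groups and those without any 1 of the 4 PLX5622 libraries, the 3 young libraries, AF-high 2, 3 or 5, or AF-low 3 (limma adjusted p from 0.0174 to 0.18). In AF-low against young 1 was called higher, where 0.0455% of all genes were. This was Ifi207, with a mean of 48.5 ± 11.9 TPM over the AF-low and 15.4 ± 0.926 TPM over the young libraries (limma adjusted p = 0.0374). It was not called in 13 of 24 alternatives, among them the same single libraries left out as for Lilrb4a (limma adjusted p from 0.0051 to 0.992). Ifi204 and Ifi207 belong to a family of close copies, so their levels are uncertain. Border-associated macrophages, found around vessels and in the meninges, had a median r of -0.10 (6 of 18 positive).

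Their 18 listed markers of 20 summed to between 278 and 331 TPM in PLX5622 libraries. The sum was 433 to 557 TPM in AF-high, 581 to 709 TPM in AF-low and, among young libraries, 366 to 436 TPM. The list was thus lowest where Cxcl13 was highest, in PLX5622, and highest where Cxcl13 came second, in AF-low cells. Mrc1, the mannose receptor of these macrophages, had 7.20, 11.0, 6.33 and 10.5 TPM in PLX5622 libraries, between 21.4 and 25.8 TPM in AF-high libraries, 28.9, 31.7 and 36.0 in AF-low and 16.8 to 18.5 TPM in young libraries, with no overlap between groups. By limma it fell in PLX5622 against AF-low (log2 -1.79 ± 0.19, adjusted p = 0.00071 over 13175 genes) and against AF-high (-1.34 ± 0.16, adjusted p = 0.00603). Cd163 and F13a1 also fell in PLX5622 against AF-low (-1.80 and -1.35, limma adjusted p = 0.02 and 0.047). Of the list, 3 of 18 were called lower in PLX5622 against AF-low, where 0.144% of all genes were, and 1 of 18 against AF-high, where 0.471% were. With only both groups in the fit, all 3 calls against AF-low ended (limma adjusted p = 0.0789 for Mrc1 and Cd163, 0.0856 for F13a1), while that of Mrc1 against AF-high did not (0.036). Leaving out any 1 library ended neither call of Mrc1; that of Cd163 ended without PLX5622 1, PLX5622 3 or AF-low 1, and that of F13a1 in 16 of 24 alternatives, among them those without any 1 PLX5622 or young library, AF-high 1, 4 or 5, or AF-low 3. Whether such macrophages contribute to the Cxcl13 of AF-low libraries was not tested.

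**Figure D4:**
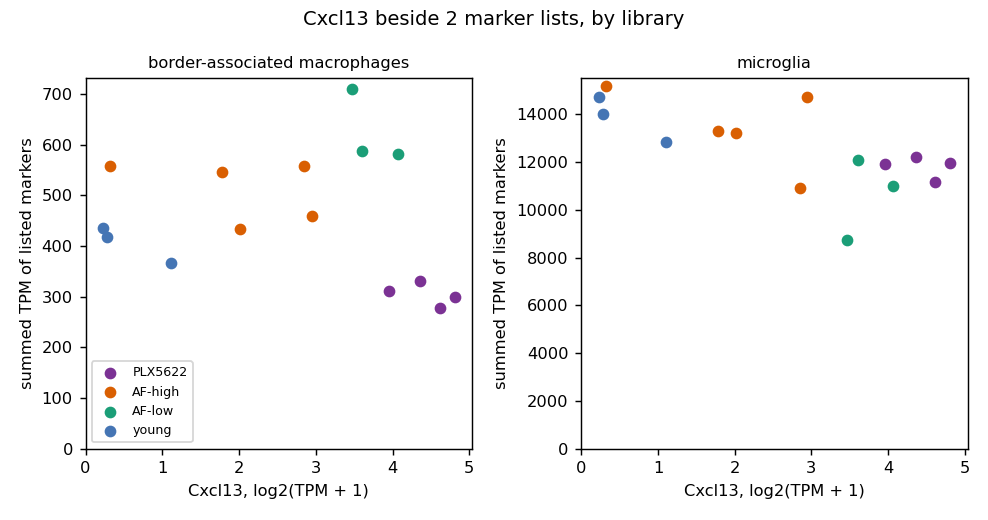
Summed TPM of the listed markers of border-associated macrophages (left) and of microglia (right) in each library, against Cxcl13 as log2(TPM + 1). PLX5622 libraries, whose mean Cxcl13 was the highest, have the lowest sums on the left (278 to 331 TPM).

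B cells, which CXCL13 attracts, were represented by 9 of 16 markers; Cd79a and Pax5, which define them, were not among the listed genes, and each gene in the table has a value above 0 in every library. The 9 summed to between 264 and 330 TPM in PLX5622 libraries, 315 and 411 in AF-high, 326 and 409 in AF-low, and 335 and 376 TPM among young libraries, mostly from Ighm and Bank1. Ms4a1, which encodes CD20, was at 13.1 ± 2.00 TPM in PLX5622, 12.1 ± 2.51 in AF-high, 13.7 ± 2.41 in AF-low and 11.8 ± 1.11 in young cells. Choroid plexus markers reached 7941 TPM in young 1, where Cxcl13 was at 1.16 TPM. Of the neutrophil list 2 of 12 were listed, S100a8 and S100a9 not among them, and of the T and NK list 3 of 15, without Cd3e. Monocytes, with 5 of 10 markers listed, had a median r of 0.29 (5 of 5 positive). All 5 had a lower mean log2 level in AF-high than in AF-low, and 0 were called, as were 0% of all genes. Their part in Cxcl13 was not tested. Dendritic cells, with 8 of 10 listed, had -0.24 (2 of 8 positive). Cd209a was called lower in PLX5622 against AF-high (limma adjusted p = 0.0289), 1 of 8 where 0.471% of all genes were. It was not called in 8 of 24 alternatives.

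The pathway around Cxcl13 was examined through 32 genes in 3 lists, chosen with earlier results of these data known, of which 16 were listed and tested. Its receptors Cxcr5 and Cxcr3 and the atypical receptors Ackr1 and Ackr4 were not among the listed genes, nor were lymphotoxin (Lta, Ltb) or Nfkb2. Of the 16 genes tested, 0 were called in each of the 6 comparisons (limma, adjusted p under 0.05), where the share of all genes called was 0% in AF-high against AF-low, 0% in AF-high against young, 0.0455% in AF-low against young, 0.63% in PLX5622 against AF-high, 0.144% in PLX5622 against AF-low and 0.0911% in PLX5622 against young. At an unadjusted p under 0.05 the counts were 0, 5, 4, 3, 3 and 3 of 16 in that order, and 1082, 1446, 1551, 2019, 1880 and 689 of all 13175 genes. Median differences of the 16 were -0.07, 0.21, 0.22, -0.13, -0.11 and -0.04 (log2), beside -0.04, -0.08, -0.04, -0.02, -0.05 and -0.11 over all genes.

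**Figure D5:**
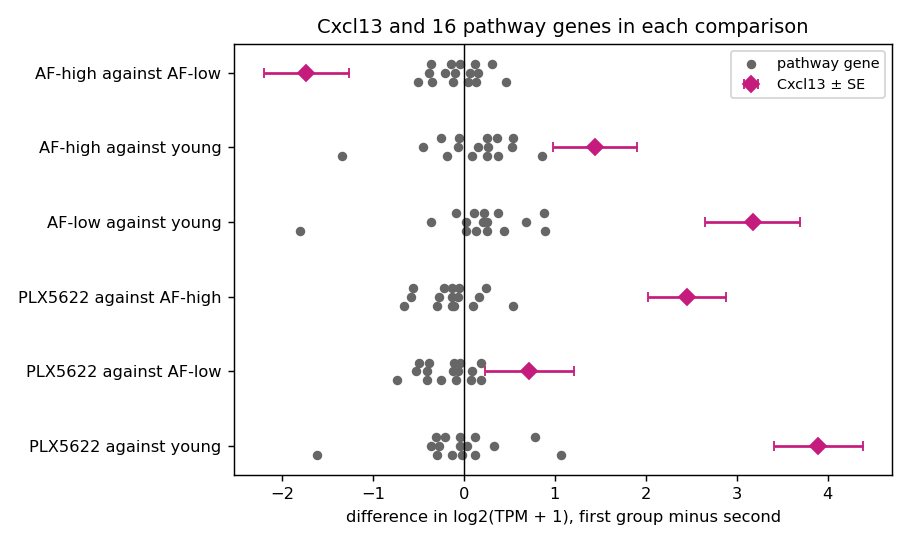
Differences in log2(TPM + 1) of the 16 pathway genes (grey points) and of Cxcl13 (diamonds, with SE from limma) in the 6 comparisons, first group minus second. Cxcl13 lies below all 16 points in AF-high against AF-low and above all 16 in the other 5 comparisons, and no pathway gene was called. The selection of Cxcl13 on its own levels favours such a place, and nothing is read from it.

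Among the ligands, Tnfsf13b, which encodes the B-cell survival factor BAFF, had the smallest unadjusted p of the 16 (PLX5622 against young) and the highest correlation with Cxcl13 (r = 0.67). PLX5622 libraries had 68.6, 61.9, 50.3 and 52.8 TPM, AF-high libraries between 28.1 and 52.6, AF-low libraries 70.9, 50.6 and 36.4 and young libraries 25.8, 23.9 and 32.2 TPM. PLX5622 and young did not overlap, yet the difference missed the threshold (log2 1.07 ± 0.24, limma adjusted p = 0.144). With only both groups in the fit it passed (adjusted p = 0.0193). Tnf, another ligand of the same list, was at 330 ± 53.1 TPM in PLX5622, 355 ± 104 in AF-high, 370 ± 132 in AF-low and 189 ± 5.78 in young cells (PLX5622 against young 0.79 ± 0.26, limma adjusted p = 0.608, and 0.0423 with only both groups).

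Of the receptors, Ltbr, through which lymphotoxin acts, was at 40.9 ± 14.9 TPM in PLX5622, 48.9 ± 30.4 in AF-high, 54.6 ± 6.42 in AF-low and 50.8 ± 13.5 in young cells, and its r with Cxcl13 was -0.15. Tnfrsf1b, a TNF receptor, was at 40.0 ± 3.68 TPM in PLX5622 and 61.0 ± 16.4 in AF-high cells (-0.57 ± 0.16, limma adjusted p = 0.0999). The inhibitors Traf2, Traf3, Birc2 and Birc3 had log2 differences between -0.36 and 0.38 in the 6 comparisons.

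Downstream, Relb, whose protein is known to bind the kappaB-like site, was at 52.6, 50.0, 41.1 and 53.4 TPM in PLX5622 and 88.9, 65.6 and 94.6 TPM in AF-low libraries, with no overlap (-0.73 ± 0.20, limma adjusted p = 0.138). It was at 76.0 ± 19.7 in AF-high and 50.7 ± 2.68 in young cells. Between PLX5622 and young cells, the groups with the highest and the lowest Cxcl13, Relb ranges overlapped (log2 -0.04 ± 0.20, limma adjusted p = 0.996), and its r with Cxcl13 was -0.04. RNA levels do not show how much RelB protein is set free to enter the nucleus. The part of this pathway in Cxcl13 was not tested. Map3k14 was at 14.1 ± 1.99 TPM in PLX5622, 24.9 ± 12.2 in AF-high, 22.5 ± 10.9 in AF-low and 17.5 ± 1.80 in young cells (r = -0.25). Cxcl12, a chemokine that keeps B-cell precursors and stem cells in bone marrow, was the only lymphoid chemokine listed beside Cxcl13, at 0.0330 to 0.518 TPM in PLX5622 libraries, at 0.220 to 1.21 TPM in AF-high libraries, at 0.0349 to 0.106 TPM in AF-low libraries and at 4.53, 7.50 and 0.107 TPM in young libraries 1 to 3. Young 1 and 2, the libraries high in Ttr, were thus the high ones, and without young 3 the gene was called lower in each old group against young (limma adjusted p = 0.00032 to 0.00053). Over the 16 pathway genes r ran from -0.58 to 0.67, with a median of -0.02.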

How the data were processed

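RNA of FACS-sorted mouse microglia was measured by sequencing. Per the labels' protocols, RNA was kept in RNAprotect, extracted with RNeasy and amplified with the Ovation system before low-input library preparation. The deposited values are TPM per gene symbol; the submitters' processing notes name FastQC 0.11.8, Salmon 1.0.0, DESeq2 and GRCm38 (mm10). How the table was filtered, which annotation was used and whether counting used strand is not stated there. The table holds 13834 genes and 0 values at 0; 19 symbols are dates; 99.35% of symbols are in GENCODE M21, the source of coordinates. There were 0 pairs of identical libraries and 0 columns that matched no sample.

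Columns were matched by the names in the labels, and groups follow the titles. Values were log2(TPM + 1); genes with at least 1 TPM in at least 3 libraries (13175) entered 1 limma 3.58.1 fit (R 4.3.3) of 4 group means over all 15 libraries, with a variance trend, 11 residual degrees of freedom, two-sided tests and Benjamini-Hochberg adjustment over all genes in each of 6 comparisons. The fit and the likeness ranking were tested on simulated data. The members and lists were chosen with earlier results of these data known, and the motifs with the Cxcl13 promoter in view. Genes named by likeness had a mean of at least 5 TPM in a group; gene models (Gm, Rik), pseudogenes, mitochondrial and ribosomal protein genes were passed over. Clec7a, a polymorphic pseudogene in GENCODE and protein coding in RefSeq, was kept; 1 of the 8 genes with the lowest r is not reported here by name. Pathway genes are named where called, and otherwise the 3 with the smallest p (Tnfsf13b, Relb, Tnfrsf1b); Tnf, Ltbr and Map3k14 were added for their roles. Promoters are RefSeq windows of GRCm38.p6, from 250 bases before to 50 after the start; positions count from the start, and bases after it are not printed. No batch is given in the labels. Alternatives were another pseudocount, filter or normalization, array weights, 2-group fits, a replicate block and leaving out libraries. Figures used matplotlib 3.10.9 in Python 3.11.15.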

Additional observations from a re-analysis of the deposited data

Results flagged for a closer look

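In groups of 4 and 5 libraries, the highest or lowest value of 3 named genes lay far from the rest of its group by Dixon's 95% limit; 60 groups were examined, and chance alone gives about 1 in 20. St8sia6 was at 56.6 TPM in PLX5622 1, against 37.6 TPM in the next library of that group. Cd72 was at 34.4 TPM in AF-high 4, against 22.9 TPM in the next AF-high library. Lat2 was at 24.7 TPM in AF-high 2, against 54.5 TPM in the next lowest. Cxcl13 in AF-high 2, at 0.252 TPM, did not pass this limit.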

How the results depend on the processing

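The 6 differences of Cxcl13 kept their signs under each alternative run. With a pseudocount of 0.1 in place of 1, AF-high minus young was 2.45, AF-low minus young 4.68 and PLX5622 minus young 5.44. Leaving out each library in turn gave -1.97 to -1.32 for AF-high minus AF-low, 1.20 to 1.86 for AF-high minus young, 3.00 to 3.46 for AF-low minus young, 2.04 to 2.69 for PLX5622 minus AF-high, 0.60 to 0.90 for PLX5622 minus AF-low and 3.74 to 4.18 for PLX5622 minus young. Of the 16 genes that run with Cxcl13, 7 (without AF-high 2) to 16 were still among the 16 highest when 1 library was left out, 6 without the 2 farthest libraries, 1 among old libraries, 7 without AF-high 2, AF-high 3 and AF-low 1, and 0 with group means subtracted; 11 were with Spearman's rho, 13 with a pseudocount of 0.1, and 12 each with quantile normalization and without a filter.

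Counts over all genes depended on the settings more than the levels of Cxcl13 did. Array weights gave 129 genes in AF-high against young, 44 in AF-low against young, 441 in PLX5622 against AF-high, 89 in PLX5622 against AF-low and 420 in PLX5622 against young; quantile normalization gave 1 in AF-high against young, 11 in AF-low against young, 4 in PLX5622 against AF-low and 22 in PLX5622 against young. With only both groups in the fit, the counts were 0 in AF-low against young, 7 in PLX5622 against AF-high, 0 in PLX5622 against AF-low and 59 in PLX5622 against young. A replicate-number block gave 0 in AF-low against young and 0 in PLX5622 against AF-high, from 6 and 83 without it. The block gave 3 in PLX5622 against AF-low and 3 in PLX5622 against young, from 19 and 12 without it. Deviations of same-numbered libraries from their group means had correlations from -0.08 to 0.14. Differently numbered libraries were not set beside them, so whether the numbers pair libraries was not tested. Without young 1 and 2 the counts were 0, 3, 3 and 0 in these 4 comparisons, and without AF-high 2, AF-high 3 and AF-low 1 they were 1, 295, 45 and 30. Leaving out each library in turn gave 0 to 1 in AF-high against AF-low, 0 to 56 in AF-high against young, 0 to 182 in AF-low against young, 1 to 205 in PLX5622 against AF-high, 2 to 398 in PLX5622 against AF-low and 1 to 52 in PLX5622 against young. The cause was not tested.

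Of the 16 pathway genes, array weights called 1 in AF-high against young (Tnf), 2 in PLX5622 against AF-high (Relb and Tnfrsf1b, lower) and 2 in PLX5622 against young (Tnf and Tnfsf13b); the fit of only both groups called 2 in PLX5622 against young, the same genes, and leaving out AF-high 2, AF-high 3 and AF-low 1 called 1 there (Tnfsf13b). Leaving out 1 library gave 0 to 1 in AF-high against young, AF-low against young, PLX5622 against AF-low and PLX5622 against young, and 0 to 0 in the other comparisons; without AF-low 2, Tnf was called in AF-low against young and Relb in PLX5622 against AF-low. With the replicate block the count was 0 in each comparison, and Mrc1 was called in PLX5622 against AF-low (adjusted p = 0.0349, limma) but not against AF-high (0.0751). Depth is unknown, so values under 1 TPM, such as those of Cxcl13 in young cells, are the least certain.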
